A study of Mus musculus with 11 samples.

Results

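The intermediate filament genes described here are Vim, Des, Nes, Synm, Krt8, Krt18, Krt19 and Plec. They were chosen by symbol, 8 of 46469 gene symbols in the expression tables, and each had 1 locus. Their RNA was followed in mouse embryonic fibroblasts (MEFs), cultured connective tissue cells, that differed in the gene for β-actin, Actb. The genotypes were Actb +/+ (WT, n = 4), Actb +/- (Het, n = 4) and Actb -/- (KO, n = 3). All cells came from BALB/c embryos at day 10.5 and were harvested in TRI Reagent when 70% confluent, in high-glucose medium with fetal bovine serum, for stranded mRNA libraries. The submitters left out a further KO library at quality control. The series text speaks of biological replicates without saying whether each was its own embryo or culture, so the p-values measure the spread between these samples.

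Intermediate filaments are rope-like polymers of coiled-coil proteins that give cells mechanical strength and position organelles beside the actin and microtubule networks. Vimentin is the main filament protein of fibroblasts and assembles with itself, while nestin and synemin need a partner such as vimentin or desmin. Keratins are obligate pairs of a type I and a type II chain, and the unpaired chain is degraded. Plectin is a cytolinker of the plakin family that ties filaments to actin, microtubules and adhesion sites.

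The targeted gene was read first. Actb (chromosome 5, 142903116 to 142906724) had a mean of 1319 FPKM in WT (SD 199, n = 4), of 833.5 in Het (SD 23.9, n = 4) and of 45.6 in KO (SD 1.27, n = 3). FPKM is a fragment count normalised to transcript length and library size, here after scaling between libraries. Sequencing depth relative to WT 1 ranged from 61.7% (WT 3) to 125% (WT 4), and KO 1 had 66.3%. Xist, the RNA that coats the inactive X chromosome, lay between 43.8 and 51.2 FPKM in the Het libraries and at no more than 0.0583 in WT and KO. That difference and the loss of 1 Actb copy cannot be told apart in Het. The 8 fibroblast markers summed to between 306 and 566 FPKM in WT, 785 and 1023 in Het, and 1289 and 1566 in KO. The markers did not share that order. Col1a1, Fn1, Pdgfrb and Thy1 had their highest means in KO. Col1a2 (6.83, 192 and 11.5 FPKM in WT, Het and KO), Prrx1 and Pdgfra had theirs in Het, where Twist1 had its lowest. Thy1 stayed below 1 FPKM in every WT and Het library, and Pdgfra in every WT library. The 8 markers of simple epithelium, Epcam and Cdh1 among them, were all below 1 FPKM in every library.

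Of the 8 genes, 7 reached 1 FPKM in at least 3 libraries and were tested, and Krt8 was not. Des and Synm passed this filter only through Het and KO libraries and Krt18 only through WT and Het libraries, so the counts that follow account for the genes and support nothing about them as a group. Differences are on the log2(FPKM + 1) scale, from limma with Benjamini-Hochberg adjustment over all 14940 genes tested and a threshold of 0.05. In KO against WT, Vim, Des and Synm rose and Nes and Krt18 fell, 3 and 2 of 7, where 23.3% of all genes rose and 23.8% fell. In Het against WT, Des, Synm and Krt18 rose and Nes fell, 3 and 1 of 7, beside 21.7% and 22.1% of all genes. In KO against Het, Vim and Nes rose and Synm and Krt18 fell, 2 and 2 of 7, beside 22.0% and 22.2%. The comparisons share libraries and are not independent of each other.

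**Figure D1:**
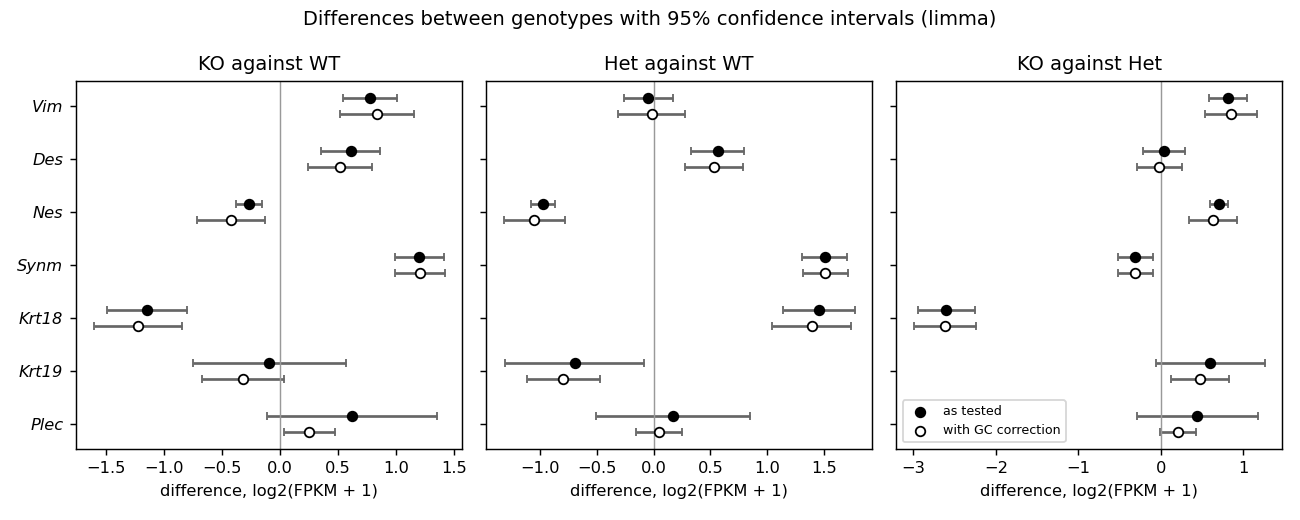
Differences between genotypes for the 7 tested genes (log2(FPKM + 1) scale, points) with 95% confidence intervals (bars), as tested (filled) and with a correction for the GC content of transcripts (open). Synm lies right of 0 in both comparisons with WT, and Krt18 lies on opposite sides of 0 in them. With the correction the intervals of Krt19 and Plec become narrower, and those of Vim, Des, Nes and Krt18 wider.

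The promoter windows of 2 pairs are shown. Des and Synm rose in both Het and KO. Krt8 and Krt18, whose proteins pair in simple epithelium, are neighbours on chromosome 15 with 23873 bases between them. Krt18 differed between all 3 genotypes, while Krt8 was too low to be tested. Each window runs 5′ to 3′ on the gene's strand from 250 bases before to 50 bases after the start (RefSeq, GRCm38.p6; 6 of the 8 genes matched the table). Capitals mark GC boxes (GGGCGG or CCGCCC) and TATA boxes (TATAAA or TTTATA). The windows lie at chr1:75360042-75360341 (plus strand) for Des, chr7:67759693-67759992 (minus strand) for Synm, chr15:102004293-102004592 (minus strand) for Krt8 and chr15:102027966-102028265 (plus strand) for Krt18.
Des: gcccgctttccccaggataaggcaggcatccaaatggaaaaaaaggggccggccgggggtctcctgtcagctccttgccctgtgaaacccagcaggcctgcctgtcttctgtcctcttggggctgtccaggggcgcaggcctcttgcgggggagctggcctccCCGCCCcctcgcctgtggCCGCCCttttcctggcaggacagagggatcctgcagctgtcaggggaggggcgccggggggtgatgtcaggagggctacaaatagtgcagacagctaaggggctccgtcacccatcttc
Synm: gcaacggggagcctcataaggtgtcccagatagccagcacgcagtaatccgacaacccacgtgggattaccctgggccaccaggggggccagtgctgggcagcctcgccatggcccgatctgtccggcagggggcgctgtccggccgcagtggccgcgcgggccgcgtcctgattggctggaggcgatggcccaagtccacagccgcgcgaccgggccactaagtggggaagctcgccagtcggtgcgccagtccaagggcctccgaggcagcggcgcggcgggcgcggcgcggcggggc
Krt8: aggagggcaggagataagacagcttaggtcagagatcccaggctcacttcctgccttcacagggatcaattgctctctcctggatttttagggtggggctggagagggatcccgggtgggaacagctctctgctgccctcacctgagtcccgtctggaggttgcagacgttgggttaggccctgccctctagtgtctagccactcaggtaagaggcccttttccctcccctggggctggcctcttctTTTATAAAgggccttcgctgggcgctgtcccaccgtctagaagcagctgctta
Krt18: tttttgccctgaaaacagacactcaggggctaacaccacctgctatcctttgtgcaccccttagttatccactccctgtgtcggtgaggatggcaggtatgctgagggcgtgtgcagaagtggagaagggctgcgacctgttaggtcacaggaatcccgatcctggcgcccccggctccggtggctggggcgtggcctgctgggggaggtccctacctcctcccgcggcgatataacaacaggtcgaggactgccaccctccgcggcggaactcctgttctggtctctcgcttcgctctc
Des had 2 GC boxes, at -87 to -82 and -69 to -64 from the start. Krt8 had overlapping TATA boxes on both strands, at -3 to 2 and -1 to 4, and neither motif was present in the Synm and Krt18 windows. Among the windows not shown, Vim had 1 TATA box at -32 to -27 and Nes had 2 GC boxes, at -73 to -68 and -62 to -57. Of all 32851 promoter windows, 35.7% held a GC box and 13.6% a TATA box. The CArG box, bound by serum response factor, and the AP-1 site TGANTCA were found in none of the 6 windows on either strand, and 1.63% and 7.81% of all windows held them. The E-box CANNTG, left in lower case, occurred in the Des, Synm, Krt8 and Krt18 windows and in 72.3% of all windows. These are letter matches only.

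Vim (chromosome 2, 13574311 to 13582826) encodes vimentin, the type III filament protein of mesenchymal cells. Its level in WT libraries 1 to 4 was 799, 872, 799 and 1048 FPKM. In Het libraries 1 to 4 it was 814, 828, 835 and 911 FPKM, and in KO libraries 1, 3 and 4 it was 1397, 1437 and 1669 FPKM. Every KO library lay above every WT and Het library, and the WT and Het ranges overlapped. The means were 879 ± 117 (SD, n = 4), 847 ± 43.3 (SD, n = 4) and 1501 ± 147 (SD, n = 3). Vim rose in KO against WT (log2 difference 0.77, SE 0.10, limma adjusted p = 0.000124) and against Het (0.82, SE 0.10, limma adjusted p = 8.98e-05), a ratio of means of 1.71 and 1.77. The Het difference from WT was -0.05 with a 95% confidence interval from -0.26 to 0.17 (limma adjusted p = 0.733). In bulk RNA, more cells expressing a gene and more RNA per cell cannot be told apart, here and below.

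Des (chromosome 1, 75360292 to 75368579) encodes desmin, the type III filament protein of muscle, and was detected near 1 FPKM. The WT libraries held 0.482, 0.385, 0.443 and 0.449 FPKM. The Het libraries held 1.01, 1.52, 0.943 and 1.09 FPKM, and the KO libraries 0.892, 1.33 and 1.41 FPKM. All Het and KO libraries were above all WT libraries, and Het and KO overlapped. Des rose in Het (0.57, SE 0.11, limma adjusted p = 0.00139) and in KO (0.61, SE 0.11, limma adjusted p = 0.00122). KO and Het differed by 0.04, with an interval from -0.21 to 0.30. Desmin is a marker of muscle lineages, so those were read beside it. The 6 smooth muscle markers summed to 97.9 to 116 FPKM in WT, 238 to 254 in Het and 7132 to 7906 in KO, where Acta2 alone had a mean of 6511 FPKM, while Myh11 remained below 1 FPKM in every library. Of the 6 skeletal muscle markers, 5 were below 1 FPKM in every library of each group, and Acta1 had means of 5.7, 3.4 and 4.0 FPKM in WT, Het and KO. The part of other cells in the Des difference was not tested.

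**Figure D2:**
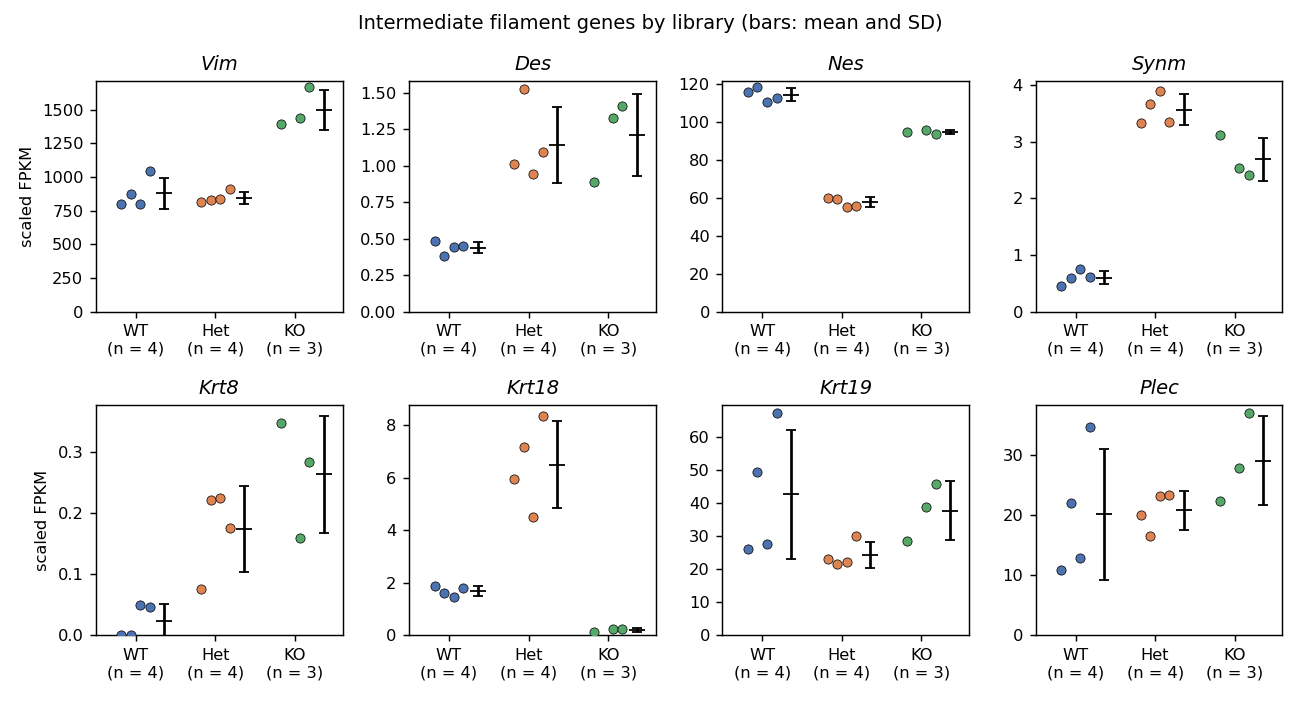
Level of each gene in every library (scaled FPKM, linear axes starting at 0; points are libraries; bars are the group mean and SD, cut at 0 for Krt8; n = 4 WT, 4 Het and 3 KO). Vim is set apart in KO, Nes, Synm and Krt18 separate all 3 genotypes, and Krt19 and Plec spread most within WT.

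Nes (chromosome 3, 87971093 to 87980451) encodes nestin, a type IV filament protein of progenitor cells that copolymerises with vimentin. Its levels were close within each genotype and separated all 3. The WT libraries held 116, 118, 111 and 112 FPKM, the Het libraries 60.1, 59.5, 55.1 and 55.7 FPKM, and the KO libraries 94.9, 95.8 and 93.5 FPKM. No 2 groups overlapped, and the order was WT, then KO, then Het. Nes fell by 49.6% in Het (log2 difference -0.98, SE 0.05, limma adjusted p = 8.03e-08). It fell by 17.1% in KO (-0.27, SE 0.05, limma adjusted p = 0.00130), and KO was above Het (0.71, SE 0.05, limma adjusted p = 1.17e-06). Of the 6 neural progenitor markers, 4 were below 1 FPKM throughout each group, but not the same 4. The 6 summed to 4.52 to 6.16 FPKM in WT, 2.81 to 3.86 in Het and 3.56 to 6.09 in KO. Pax6 reached 1 FPKM only in WT and Het libraries and fell in KO (-1.55, limma adjusted p = 2.17e-07). Fabp7 reached it only in KO libraries and rose there (1.45, limma adjusted p = 0.000405). Pax6 and Msi1 fell in Het (-0.42 and -0.66, limma adjusted p = 0.00193 and 0.00908).

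Synm (chromosome 7, 67730161 to 67759742) encodes synemin, a type IV protein that links desmin and vimentin filaments to the dystrophin complex in muscle. The WT libraries held 0.456, 0.597, 0.751 and 0.605 FPKM. The Het libraries held 3.32, 3.67, 3.90 and 3.35 FPKM, and the KO libraries 3.12, 2.54 and 2.40 FPKM. The 3 groups did not overlap, with Het highest and WT lowest. The ratio of means to WT was 5.91 in Het (log2 difference 1.51, SE 0.09, limma adjusted p = 3.81e-07) and 4.46 in KO (1.20, SE 0.10, limma adjusted p = 2.55e-06). KO was below Het (-0.31, SE 0.10, limma adjusted p = 0.0229), a call that was lost without Het 2 (adjusted p = 0.0541), Het 3 (0.0612), KO 3 (0.0842) or KO 4 (0.0987), with a pseudocount of 0.1 (0.0669) and with no filter on low values (0.0566).

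Krt18 (chromosome 15, 102028216 to 102032026) encodes keratin 18, a type I chain of simple epithelium. It rose in Het and fell in KO. The WT libraries held 1.89, 1.61, 1.46 and 1.80 FPKM. The Het libraries held 5.96, 7.17, 4.51 and 8.37 FPKM, and the KO libraries 0.133, 0.257 and 0.253 FPKM. The 3 groups did not overlap, and the lower end of the deposited Cufflinks interval was 0 in each KO library. The difference from WT was 1.46 in Het (SE 0.14, limma adjusted p = 1.63e-05) and -1.15 in KO (SE 0.16, limma adjusted p = 0.000126), and KO against Het was -2.60 (SE 0.16, limma adjusted p = 3.00e-07). The ratio of mean FPKM of Het to WT was 3.85.

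Krt8 (chromosome 15, 101996711 to 102004342) encodes keratin 8, the type II partner of keratin 18. It was listed at 0 in WT 1 and WT 2 and at 0.0495 and 0.0472 FPKM in WT 3 and WT 4. The Het libraries held 0.0755, 0.222, 0.225 and 0.175 FPKM and the KO libraries 0.348, 0.160 and 0.284 FPKM. All Het and KO libraries were above all WT libraries, but the deposited interval reached 0 in every library, and Krt8 was not tested. A pseudogene, Krt8-ps, was listed at up to 0.238 FPKM (KO 4), so the split of reads between the copies is uncertain. Among Het libraries the Krt18 level was thus at least 4.51 FPKM beside a Krt8 level of no more than 0.225 FPKM. The 8 simple epithelium markers summed to 0.601 to 0.897 FPKM in WT, 0.605 to 1.10 in Het and 0.261 to 0.460 in KO, Cdh1 having means of 0.140, 0.561 and 0.287 FPKM and Epcam of 0.470, 0.0914 and 0.0286 FPKM. Their part in the Krt18 difference was not tested.

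Krt19 (chromosome 11, 100140810 to 100145919) encodes keratin 19, the smallest type I chain, found in simple and ductal epithelium. It was the most abundant keratin measured in each library. The WT libraries held 26.3, 49.4, 27.7 and 67.4 FPKM, a spread of 42.7 ± 19.6 (SD, n = 4). The Het libraries held 23.2, 21.6, 22.2 and 29.96 FPKM and the KO libraries 28.4, 39.0 and 45.9 FPKM. All groups overlapped. No comparison passed the threshold: the difference from WT was -0.69 in Het (interval -1.31 to -0.08, limma adjusted p = 0.0644) and -0.09 in KO (-0.75 to 0.57, limma adjusted p = 0.830), and KO against Het was 0.60 (-0.06 to 1.27, limma adjusted p = 0.126). The Het difference passed without WT 1 (-0.88, limma adjusted p = 0.0223) or WT 3 (-0.86, limma adjusted p = 0.0348). KO against Het passed when only those groups entered the fit (limma adjusted p = 0.0179).

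Plec (chromosome 15, 76170974 to 76231378), which encodes plectin, gave no call. The WT libraries held 10.9, 22.1, 12.9 and 34.8 FPKM, the widest spread of the 3 groups. The Het libraries held 20.01, 16.6, 23.2 and 23.5 FPKM and the KO libraries 22.4, 27.9 and 37.1 FPKM. All groups overlapped. The difference from WT was 0.62 in KO (interval -0.11 to 1.35, limma adjusted p = 0.1497) and 0.17 in Het (-0.51 to 0.85, limma adjusted p = 0.686), and KO against Het was 0.45 (-0.28 to 1.18, limma adjusted p = 0.304). Without WT 4, KO against WT passed the threshold (0.91, limma adjusted p = 0.0110).

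The spread of Plec and Krt19 moved with that of genes whose transcripts are rich in G and C. Their longest annotated transcripts are 61.3% and 57.6% G and C, against 56.5% for Des, 56.4% for Krt18, 55.5% for Nes and 46.5% for Vim. The 275 genes above 60% GC, Plec among them, had a median deviation from their group mean of -0.49 in WT 1, -0.30 in WT 3, 0.15 in WT 2 and 0.64 in WT 4 on the log2 scale. Des and Krt18 did not follow that order, both being highest in WT 1 among the WT libraries. Plec deviated by -0.69, -0.47, 0.27 and 0.90 in the same libraries, and Krt19 by -0.57, -0.50, 0.31 and 0.76. KO 1 and KO 4 deviated likewise, at -0.24 and 0.27 for the GC-rich genes and -0.34 and 0.37 for Plec. Nes deviated by -0.06 to 0.06 in every library, and Vim ranged from -0.13 in WT 1 to 0.26 in WT 4. A set of 2517 genes of low GC went the other way, with medians of 0.16 in WT 1 and -0.18 in WT 4. A correction that fitted each library's deviation to transcript GC, added after seeing the data, narrowed Plec in WT to 17.6 to 23.7 FPKM. Plec in KO against WT was then 0.25 (interval 0.03 to 0.47, limma adjusted p = 0.0517). With it Krt19 was lower in Het than in WT (-0.80, limma adjusted p = 0.000958) and higher in KO than in Het (0.48, limma adjusted p = 0.0259). The other tested genes kept their calls. However, the correction widened Nes in WT from an SD of 3.51 to 21.1 FPKM, and Vim from 117 to 184 FPKM. Krt18 in WT widened from an SD of 0.196 to 0.465 FPKM, and Des from 0.0406 to 0.128 FPKM. The WT SD of Synm, Krt19 and Plec became smaller. The correction and the deviations rest on the same libraries, and the cause of the deviations was not tested.

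**Figure D3:**
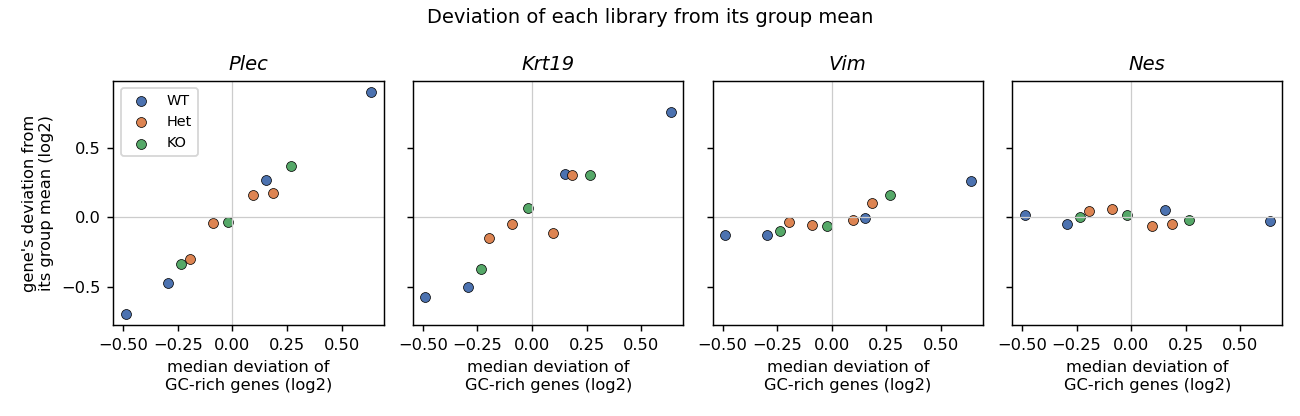
Deviation of Plec, Krt19, Vim and Nes from the group mean in each of the 11 libraries (y axis, log2) against the median deviation of the GC-rich genes in that library (x axis, log2). Plec and Krt19 are low where the GC-rich genes are low (WT 1 and WT 3) and high where they are high (WT 4), Vim less so, and Nes stays between -0.06 and 0.06.

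Keratin chains of both types were then summed, since each filament needs one of each. Of 50 keratin symbols, 27 of type I and 23 of type II, 7 reached 1 FPKM in any library. Type I keratins summed to 31.0 to 76.0 FPKM in WT, 28.7 to 40.8 in Het and 31.6 to 50.8 in KO, with Krt19 the largest part in every library. Type II keratins summed to 15.3 to 28.3 FPKM in WT, 5.39 to 6.39 in Het and 15.3 to 20.6 in KO. The ratio of the sums was 1.59 to 2.68 in WT, 4.53 to 6.44 in Het and 2.07 to 2.46 in KO. The Het libraries thus lay above all others, and the WT and KO ranges overlapped. FPKM sums measure RNA, and protein pairs were not measured.

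Most type II RNA came from Krt80 and Krt7, with little from Krt8. Krt80, a type II keratin of epithelia, made up 96.1% to 98.8% of type II RNA in WT and 87.8% to 91.2% in Het. Krt80 had means of 20.9, 5.45 and 8.92 FPKM in WT, Het and KO, and fell in Het (-1.74, SE 0.17, limma adjusted p = 1.23e-05) and in KO (-1.13, SE 0.18, limma adjusted p = 0.000382). In KO, Krt7, a type II chain of ductal epithelium, held 43.5% to 51.3% of type II RNA beside Krt80. Krt7 rose from 0.148 ± 0.132 FPKM in WT (SD, n = 4) to 8.90 ± 1.59 in KO (SD, n = 3), a log2 difference of 3.10 (SE 0.13, limma adjusted p = 1.76e-08). Its Het mean was 0.351 FPKM (difference 0.24, limma adjusted p = 0.138). Of the other 24 keratins listed outside the 8 genes, 5 were tested. In KO against WT, 3 rose and 2 fell, and in Het against WT, 1 rose and 2 fell, where 23.3% and 23.8% of all genes did so in KO and 21.7% and 22.1% in Het. Krt7 and Krt13 reached 1 FPKM only in KO libraries and Krt14 only in WT libraries, so these counts support nothing. Krt13, a type I chain of internal stratified epithelia, rose in KO (1.48) and Het (0.47), with means of 0.135, 0.586 and 2.19 FPKM. Krt14, the type I chain of basal keratinocytes, fell in KO (-1.66) and Het (-1.32), with means of 2.56, 0.312 and 0.0348 FPKM. Its level in WT libraries 1 to 4 was 1.28, 3.08, 1.09 and 4.8 FPKM, lower in WT 1 and WT 3 as for Krt19. The Krt14 transcript is 57.2% GC. Krt7 is also on the trophoblast marker list, whose other members were below 1 FPKM in every WT library except Gata3, with means of 5.24, 11.7 and 7.18 FPKM in WT, Het and KO. Mesothelium expresses several of these keratins. Its 5 markers summed to 29.4 to 39.6 FPKM in WT, 19.5 to 22.2 in Het and 15.2 to 18.9 in KO. Most of that sum was Msln, with means of 32.5, 16.2 and 16.4 FPKM in WT, Het and KO. Upk3b, Upk1b and Wt1 were highest in Het, with means of 1.33, 0.921 and 0.410 FPKM, and below 1 FPKM in every WT and KO library. Lrrn4 had means of 1.68, 1.67 and 0.938 FPKM. The part of such cells in the keratin differences was not tested.

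**Figure D4:**
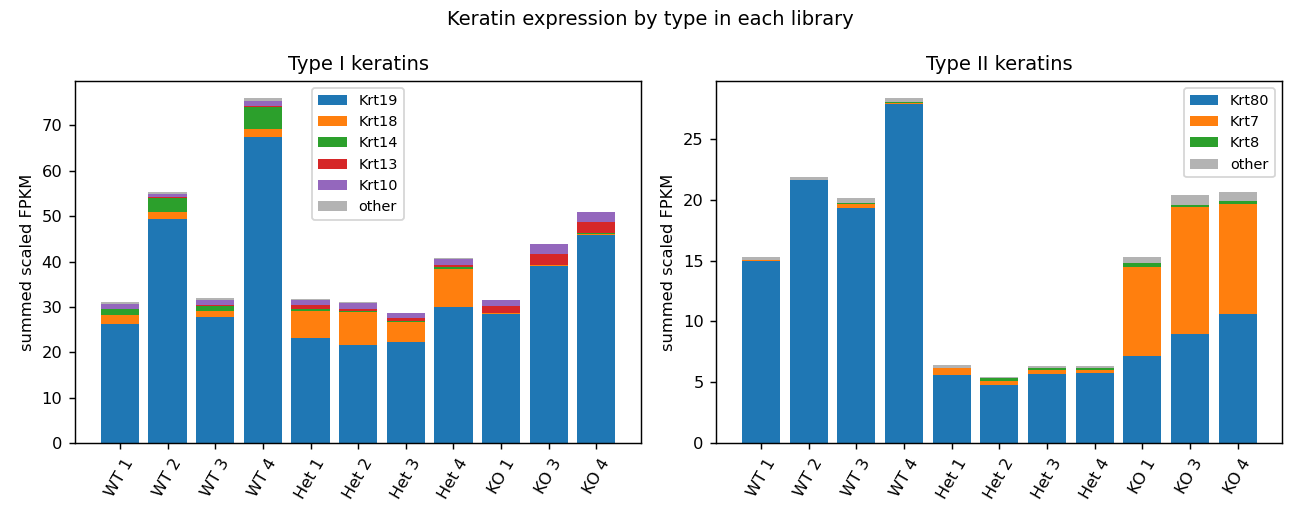
Summed level of type I keratins (left) and type II keratins (right) in each library (scaled FPKM, stacked bars from 0, colours by gene, remaining keratins in grey). Krt19 forms most of every type I bar; the type II bar is nearly all Krt80 in WT, 5.39 to 6.39 FPKM high in Het, and shared between Krt7 and Krt80 in KO.

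Vimentin RNA dominated the pool in every genotype. Of the summed FPKM of the 7 filament-forming genes, Plec left aside, Vim made up 83.7% to 85.2% in WT, 89.7% to 90.6% in Het and 91.2% to 92.1% in KO. Nes made up 9.13% to 12.3% in WT, 5.52% to 6.62% in Het and 5.16% to 6.22% in KO. Nes RNA per Vim RNA was 10.7% to 14.5% in WT, 6.11% to 7.39% in Het and 5.61% to 6.79% in KO. Both mutant genotypes were below WT without overlap. Nes was lower than in WT in both, and Vim was higher in KO.

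Genes related to these filaments were then read from lists. Of 12 genes listed as plakins and filament linkers besides Plec, 9 were tested. In KO against WT 3 fell (23.8% of all genes), and in Het against WT 3 rose and 2 fell (21.7% and 22.1%), with medians of -0.24 and 0.09 against 0.01 for all genes in both comparisons. The 3 that rose in Het were Agfg1 (0.37), Dst and Syne3 (0.33). The Syne3 call was lost with no filter on low values (limma adjusted p = 0.0829) and with upper quartile scaling (limma adjusted p = 0.0530), among other alternatives. Dsp, which encodes desmoplakin, the plakin that anchors keratins at desmosomes, fell from a mean of 6.26 FPKM in WT to 0.971 in Het (-1.88, limma adjusted p = 6.35e-08) and 1.79 in KO (-1.38, limma adjusted p = 7.07e-07). Dst, which encodes the plakin dystonin, rose in Het (0.36) and fell in KO (-0.25), the latter without a call under the GC correction (limma adjusted p = 0.0761). Itga6, an integrin subunit of hemidesmosomes, fell in KO (-0.57) and measured -0.21 in Het (limma adjusted p = 0.0563). Itgb4, the other integrin gene listed, was below 1 FPKM in every library, so hemidesmosomes are not read from Itga6.

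Of 13 desmosome genes, 6 were tested. In Het against WT 5 fell and 1 rose (22.1% and 21.7% of all genes), in KO against WT 2 fell and 1 rose (23.8% and 23.3%), and in KO against Het 5 were higher (22.0%). The medians were -1.18, 0.12 and 0.58, beside 0.01 for all genes in each comparison. Jup was the gene that rose in Het (0.73, limma adjusted p = 0.0315). Its means were 19.6, 31.5 and 27.3 FPKM in WT, Het and KO. The desmosomal cadherins listed, genes of the Dsc and Dsg families, were below 1 FPKM in every library and not tested. Among them Dsg2 was highest in Het, with means of 0.279, 0.777 and 0.0145 FPKM. The plakophilins, armadillo proteins of the desmosome plaque, were lowest in Het. Pkp1 had means of 7.84, 1.86 and 8.52 FPKM in WT, Het and KO, and fell in Het (-1.63, limma adjusted p = 2.99e-08) with a KO difference of 0.11 (limma adjusted p = 0.262). Pkp2 had means of 21.1, 8.55 and 25.3 FPKM, fell in Het (-1.21, limma adjusted p = 3.00e-07) and was 0.25 above WT in KO (limma adjusted p = 0.0162). The KO call was lost with no scaling between libraries (0.16, limma adjusted p = 0.0674) and with upper quartile scaling (0.20, limma adjusted p = 0.0779). It was also lost without KO 1 (0.24, limma adjusted p = 0.0531). Perp, a tetraspan protein of desmosomes, fell in Het (-1.16) and KO (-0.49).

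Of 15 dystrophin complex and costamere genes, which bind synemin, desmin and keratin 19 in muscle, 11 were tested. In KO against WT 5 rose and 3 fell (23.3% and 23.8% of all genes), and in Het against WT 2 rose and 5 fell (21.7% and 22.1%), with medians of 0.22 and -0.22. Dmd reached 1 FPKM only in KO libraries and Nebl in no Het library, so these counts support nothing about the list. Dtna, which encodes α-dystrobrevin, a known binding partner of synemin, rose in KO from a mean of 1.02 to 7.70 FPKM (2.12, limma adjusted p = 1.26e-06), with a Het mean of 0.887 FPKM. Utrn, which encodes utrophin, rose in Het (0.57) and KO (0.43). Dag1, which encodes dystroglycan, fell in Het (-0.77) and KO (-0.37). Sgcb and Sgce encode sarcoglycans: Sgcb fell in Het (-0.47) and KO (-0.84), and Sgce fell in Het (-0.62) and rose in KO (0.49).

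**Figure D5:**
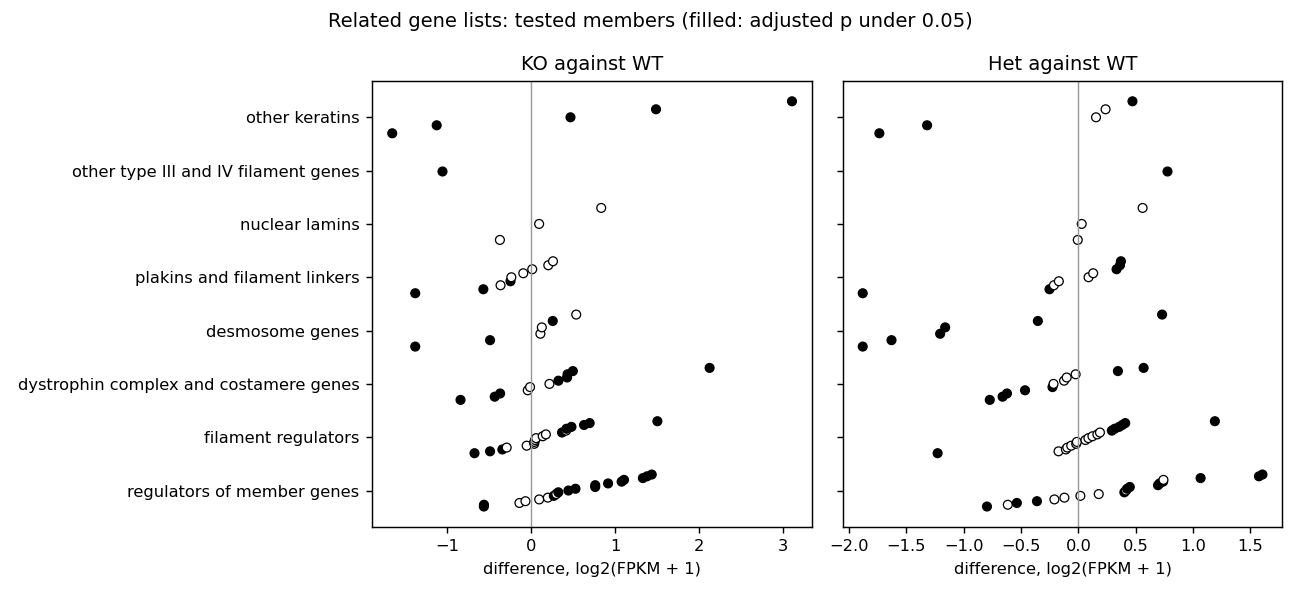
Differences from WT of the tested genes of 8 related lists in KO (left) and Het (right), on the log2(FPKM + 1) scale, 1 point per gene, filled where the limma adjusted p was under 0.05. The 5 desmosome genes that fell in Het lie left of 0 and the regulators of the filament genes lie mostly right of 0 in both genotypes. The position of the regulators supports nothing about that list, as stated in the text.

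Among 18 kinases, chaperones and adaptors that act on filaments, all tested, 6 rose and 3 fell in KO against WT (23.3% and 23.8% of all genes), and 6 rose and 1 fell in Het against WT (21.7% and 22.1%). Cryab, a small heat shock chaperone of desmin, had means of 38.2, 88.6 and 110 FPKM in WT, Het and KO and rose in Het (1.19, limma adjusted p = 3.94e-07) and KO (1.5, limma adjusted p = 7.84e-08). Hspb1, another small heat shock chaperone of filaments, fell in Het (-1.23, limma adjusted p = 0.000579) and measured -0.29 in KO (limma adjusted p = 0.294). Its transcript is 61.7% GC. Aurkb, a mitotic kinase that phosphorylates vimentin, fell in KO (-0.68) and measured -0.10 in Het (limma adjusted p = 0.313). Prkca, a protein kinase C gene, rose in Het (0.41) and KO (0.63).

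Of 23 transcription factors known to act on vimentin, desmin, nestin or simple keratin genes, 19 were tested. In KO against WT 12 rose and 2 fell (23.3% and 23.8% of all genes), and in Het against WT 9 rose and 3 fell (21.7% and 22.1%), with medians of 0.44 and 0.42. Mef2c, one of the 12 and of the 3, reached 1 FPKM in no Het library, so these counts support nothing about the list. Ets2, reported to act on the keratin 18 gene, rose in KO (1.43, limma adjusted p = 9.23e-09) and Het (0.40, limma adjusted p = 0.000104). Mef2a, a muscle factor that acts on desmin, had means of 10.1, 32.8 and 17.8 FPKM and rose in Het (1.61, limma adjusted p = 2.45e-08) and KO (0.76, limma adjusted p = 8.26e-06). Klf4, an epithelial factor, had means of 1.19, 5.47 and 4.45 FPKM and rose in Het (1.58) and KO (1.33). Snai1, a repressor of epithelial genes, rose in KO (1.38, limma adjusted p = 0.00679) and measured 0.74 in Het (limma adjusted p = 0.0822). Sox11 rose in KO (1.10) and Het (0.45), Sox9 rose in Het (1.07) with a KO value of 0.20 (limma adjusted p = 0.141), and Twist1 fell in Het (-0.80) with a KO value of 0.09 (limma adjusted p = 0.456).

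Among 8 further type III and IV genes only Prph, which encodes peripherin of peripheral neurons, was tested. Like Krt18 it was highest in Het, with means of 2.04, 4.08 and 0.443 FPKM in WT, Het and KO. It fell in KO (-1.06, SE 0.23, limma adjusted p = 0.00276) and rose in Het (0.78, SE 0.21, limma adjusted p = 0.0114), the latter without a call at a pseudocount of 0.1 (limma adjusted p = 0.0910). Prph reached 1 FPKM only in WT and Het libraries, and its transcript is 60.8% GC. The 3 nuclear lamins, type V filament proteins, gave 0 limma calls in each comparison and 0 at an unadjusted p under 0.05. Lmna had means of 89.4 FPKM in WT (SD 65.3), 113 in Het (SD 32.2) and 138 in KO (SD 51.1), and Lmnb1 had means of 55.7, 55.5 and 59.6 FPKM.

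For each tested gene, the closest profiles were sought among 9020 genes, as the smallest root mean square difference between centred log2(FPKM + 1) profiles over the 11 libraries. The nearest to Vim were Atp6v1g1, Ppp1r18 and Arhgef18, with differences of 0.07 to 0.09 against a profile SD of 0.38 for Vim. The nearest to Nes were Gng10, Cplx2 and Rnf19b (0.08 to 0.09, profile SD 0.43). The nearest to Synm were Setbp1, Gas1 and Klhl24 (0.13 to 0.15, profile SD 0.68), and Setbp1 had means of 0.978, 5.47 and 4.06 FPKM in WT, Het and KO. The nearest to Krt18 were Enpp2, Figf and Neurl3 (0.24 each, profile SD 1.06), and Enpp2 had means of 4.52, 12.5 and 1.33 FPKM. The nearest to Des were Itgb1bp1, Socs5 and Commd3 (0.10 each, profile SD 0.31). The nearest to Krt19 were Phldb1, Adamtsl4 and Them6, and to Plec Pcnxl3, Dctn1 and Prrc2a. Those 6 genes have transcripts of 58.8% to 62.1% GC, beside 57.6% for Krt19 and 61.3% for Plec.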

How the data were processed

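The deposited values are FPKM per gene and library that the authors estimated with Cufflinks 2.2.1 after aligning reads with TopHat2 2.1.0 to GRCm38.p4, per the submitters' processing notes, which also name Cuffdiff without a version. Whether counting used strand, and the read counts, are not given in the sources used here, so count models were not used and reads of overlapping genes could not be separated. FPKM were summed per symbol (1766 symbols had over 1 locus) and scaled between libraries with factors of 0.941 to 1.04, each the median ratio of 13981 genes to their geometric mean. Genes at 1 FPKM or more in at least 3 libraries were tested with limma 3.58.1 in R 4.3.3 on log2(FPKM + 1), with a trend and 1 mean per group over all 11 libraries. This scale understates the change of low genes. Depth was estimated from the deposited intervals, whose half-width for well-expressed genes was 6.42% to 8.58% of the value, which covers estimation within a library only.

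All 8 genes are named in each comparison. From each list of related genes the text draws on those past the threshold against WT, at most 4 per comparison by largest difference, or 2 with the highest level where none passed. Similar profiles were the 3 nearest per gene among those reaching a mean of 5 FPKM in a group. The genes and lists were chosen with earlier results of these data known. Some listed genes outside that rule, Jup and Dmd among them, are named only to state a limit, and the others are counted only. Alternatives varied the pseudocount, filter, scaling, loci, groups fitted, replicate block and single libraries. Transcript GC came from the GENCODE annotation, available for 92.2% of tested genes. The GC correction, a spline with 4 degrees of freedom fitted to 9810 genes of at least 5 FPKM, was chosen after seeing the data.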

Additional observations from a re-analysis of the deposited data

How the results depend on the processing

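The number of the 8 genes called in either direction moved by no more than 1.5 times under the alternatives run, as did the count of all genes called. By direction, the genes lower in KO against Het went from 2 to 1 where Synm lost its call, and those lower in Het against WT from 1 to 2 where Krt19 gained one. The sign turned for differences that were not called. Des in KO against Het was -0.014 with no scaling between libraries, -0.017 with the GC correction, and -0.024 to 0.15 with 1 library left out. With 1 library left out, Plec in Het against WT ranged from -0.059 to 0.47, Krt19 in KO against WT from -0.28 to 0.16, and Vim in Het against WT from -0.089 to 0.036. The cause was not tested.

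Scaling moved the balance of calls. Among genes called in KO against WT, 49.4% were higher as scaled here, 43.2% with upper quartile scaling and 37.1% with none. In KO against Het they were 49.8%, 40.6% and 36.5%. The median difference over all genes was 0.01 as scaled here and, with no scaling, -0.08 in KO against WT and -0.09 in KO against Het, and no call of the 8 genes changed with scaling.

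Replicate numbers are shared in the labels, and same-numbered libraries deviated together for some numbers only: of 10 pairs, 5 had a correlation over 0.1. The pairs of number 4 had 0.254 to 0.353, those of number 1 0.0445 to 0.333, those of number 3 -0.094 to -0.0105, and that of number 2 -0.101. Of 11 libraries, 6 correlated best with one of their own number, a hint from the data and not the design. With the replicate block 7293 genes were called in KO against WT against 7041 without it. Krt19 in Het against WT and in KO against Het gained a call (limma adjusted p = 0.0186 and 0.0416), and Synm in KO against Het lost one (0.0507). With the block and the GC correction together 8092 were called in KO against WT.

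Des, Krt8, Krt18 in KO and Synm in WT lie near or below 1 FPKM, where the pseudocount and few reads limit the size of any fold. Only 3 KO libraries were compared, the WT libraries differ in their GC trend, and Xist differs between Het and the other groups.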
